A study of Takifugu fasciatus with 6 samples.

Results

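Splicing removes introns from new transcripts. It is carried out by the spliceosome, which is built on each intron from small nuclear ribonucleoproteins (snRNPs), particles of 1 short RNA and a set of proteins. The U1 particle binds the start of the intron and the U2 particle its branch site, the U4/U6.U5 particles join next, and the Prp19 complex and further factors prepare and run the catalytic steps. SR proteins, named for their arginine and serine repeats, bind exons and steer the choice of splice sites, and the exon junction complex is left on the joined exons. A minor spliceosome with U11 and U12 particles handles a rare class of introns. How the transcripts of these proteins differed between livers of cold-exposed and control pufferfish is described here.

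The genes were chosen by protein name alone: the name of the Swiss-Prot (or other protein) match had to contain "splicing factor", "pre-mRNA-processing", "small nuclear ribonucleoprotein" or "mago nashi", and not "RNA helicase" or "nucleolar". The rule took 70 of the 20990 genes of the deposited table. It uses no measured value, but it was chosen with earlier results of these data known. The 70 rows carry 59 gene names, since 11 names occur on 2 rows. Genes are written with the symbol of the match, which often comes from a mammal, and for 2 rows without a symbol (SNRPE) it was taken from the protein name. Roles are those known for the matched proteins, mostly from human, mouse and yeast.

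Livers came from juvenile Takifugu fasciatus, a warm-water pufferfish. The experimental group (EG: libraries Ga, Gb and Gc) was cooled from 26 °C, held at 19 °C for 12 h, cooled further and held at 12 °C for 24 h. The control group (CG: libraries G1, G2 and G3) stayed at 26 °C, and all fish had been acclimated at that temperature for 2 weeks. Each library is a pool of livers from 6 fish, so errors below rest on pools and not on single fish. A standard deviation (SD) is the spread between 3 pools. No genotype or strain is given for either group, and the labels name no other treatment.

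Depth was 32391863 to 45548824 counts per library in EG and 31150888 to 39203099 in CG. Levels are CPM, counts scaled to a common library size with TMM factors (trimmed mean of M-values), and a gene is called at a Benjamini-Hochberg adjusted p under 0.05 in the quasi-likelihood test of edgeR, run over all 14357 genes that passed a filter on low counts. The log2FC is the log2 fold change of EG over CG, and SE is its standard error. "Rose" and "fell" are used only of called genes. Hepatocyte markers (23 genes) summed to 271453 to 330724 CPM in EG and 223842 to 250170 CPM in CG, with 12 called higher and 1 lower. Of all tested genes, 23.7% were called higher and 21.7% lower. Other cells were present too. Exocrine pancreas markers (16 genes) summed to 572 to 20869 CPM in EG and 5472 to 23698 CPM in CG, with none of 11 tested genes called in either direction. Erythrocyte markers (6 genes) gave 3481 to 6887 CPM in EG and 6221 to 15952 CPM in CG, with 2 of 6 tested genes called lower. Leukocyte markers (11 genes) gave 23.2 to 64.6 CPM in EG and 62.3 to 85.2 CPM in CG, with 4 of 10 tested genes called lower. Endothelial and stellate markers (18 genes, with 1 of 2 Col1a2 rows at 0) gave 912 to 1680.1 CPM in EG and 1428 to 1872 CPM in CG. Here 4 of 17 tested genes were called lower, near the share of all tested genes. Markers of biliary and gut epithelium (18 genes, with KRT19, 1 of 2 Fabp2 rows and 1 of several krt18 rows at 0) gave 510.0 to 656 CPM in EG and 560 to 654 CPM in CG. Only 12 of them were tested, with 1 called lower. The part of these other cells in the results below was not tested, and in pooled tissue fewer cells of a type and less RNA per cell cannot be told apart.

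Most splicing transcripts were higher in EG livers. All 70 members passed the filter, of which 46 rose, 8 fell and 16 were not called. The share that rose was 65.7%, where 23.7% of all tested genes rose, and the share that fell was 11.4%, where 21.7% of all tested genes fell. More than 2-fold, 32 members (45.7%) rose and 5 (7.14%) fell, against 13.7% and 15.4% of all tested genes. In 50 members (71.4%) all EG libraries lay above all CG libraries, and in 9 (12.9%) below, where 29.0% and 28.8% of all tested genes did. The median log2FC was 0.97 over the members and -0.03 over all tested genes.

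Summed over all 70 members, transcripts made up 3836, 3838 and 3101 CPM in Ga, Gb and Gc, against 2316, 2260.3 and 2321 CPM in G1, G2 and G3. Every EG library was above every CG library, and the CG libraries lay close to each other. The gap is on the TMM scale, with factors of 0.82 to 0.97 in EG and 1.10 to 1.15 in CG. A lower factor raises the CPM of a library, so the gap is smaller with library totals. Gc was the lowest EG library for 37 of the 46 members that rose (80.4%), and for 52.4% of the 3398 genes that rose in the whole table. Without Gc, 50 members rose and 8 fell, and the 46 and 8 called with all libraries were among them.

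Part of the split between directions depended on how libraries were scaled. When TMM was replaced by library totals, 36 members rose and 11 fell, beside 2024 that rose and 4514 that fell among all 14357 tested genes, while the median over the whole table became -0.37 in place of -0.03. Another scaling, offset and test together, log2(FPKM + 1) values with limma, gave 36 members that rose and 12 that fell, beside 1962 and 4754 of all genes, so that 75.0% of called members were higher, against 85.2% on the TMM scale. Values below are on the TMM scale.

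**Figure D1:**
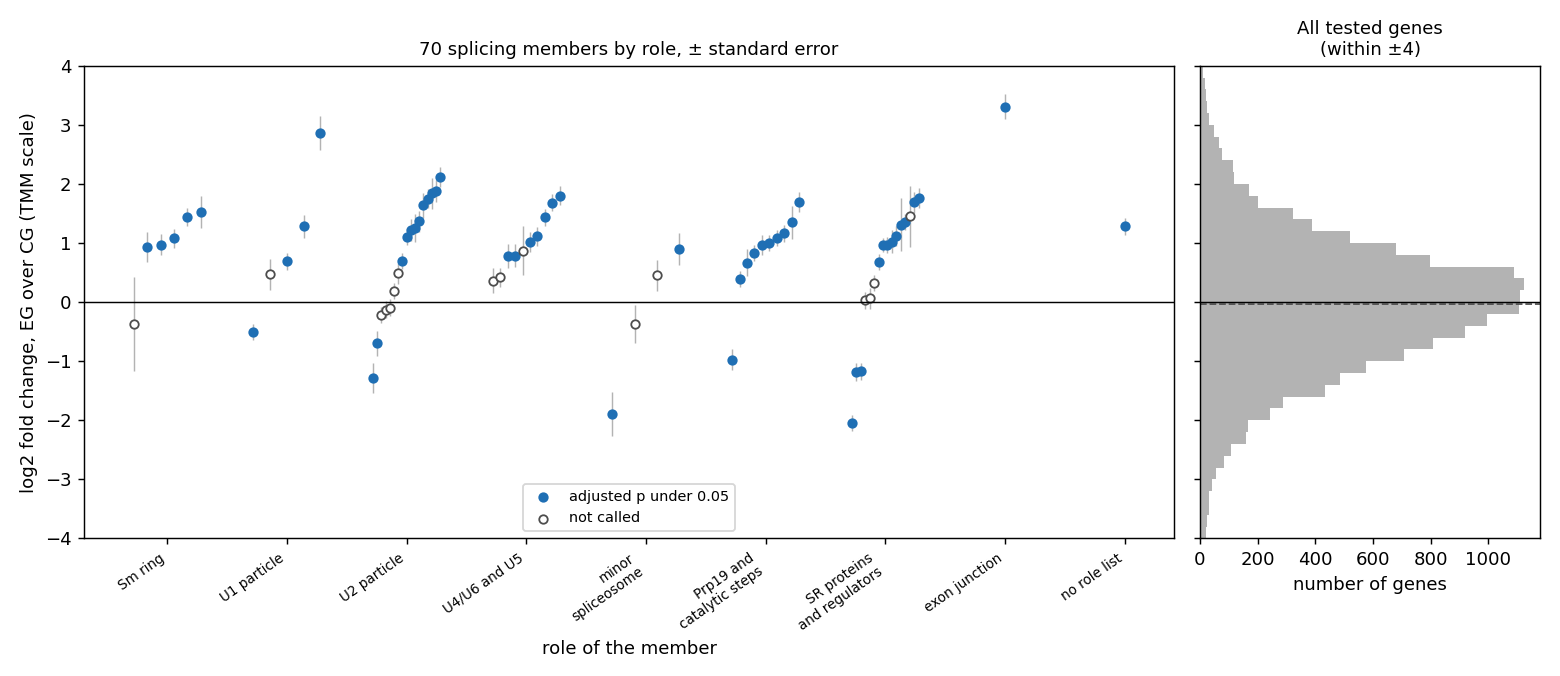
Log2 fold change (EG over CG) of each of the 70 splicing members, by role, with its standard error as a bar; filled points passed an adjusted p under 0.05 and open points did not. The histogram at the right shows all tested genes within 4 log2 units, with their median of -0.03 as a dashed line: most members lie above it, and the members that fell are spread over the U1, U2, minor spliceosome, Prp19 and SR groups.

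The only exon junction protein taken by the rule had the largest increase of all members. magoh encodes a core protein of that complex, which marks exon junctions for export, translation and decay of the mRNA. It is fugu_GLEAN_10000804, on the minus strand of scaffold410 at 112904 to 115212. Its level was 73.4, 63.4 and 52.3 CPM in Ga, Gb and Gc, against 7.21, 6.88 and 4.99 CPM in G1, G2 and G3. The lowest EG library was far above the highest CG library, and the difference was 9.9-fold (log2FC 3.31, SE 0.21, adjusted p = 6.13e-05, edgeR).

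Of the 5 members of the U1 particle 3 rose, 1 fell and 1 was not called, where 23.7% of all tested genes rose and 21.7% fell. Snrpa, the U1 A protein that binds a stem-loop of the U1 RNA, had 26.2, 23.9 and 15.8 CPM in Ga, Gb and Gc, against 2.24, 2.79 and 4.06 CPM in G1, G2 and G3, a 7.25-fold rise (log2FC 2.86, SE 0.287, adjusted p = 0.000235, edgeR). It was the second largest increase among the members. Snrnp70, the 70 kDa protein through which U1 meets SR proteins, did the opposite. It is the most abundant U1 member, and it had 170.4, 158 and 173 CPM in EG and 252, 225 and 235 CPM in CG (log2FC -0.51, SE 0.133, adjusted p = 0.0156, edgeR). The groups did not overlap, as in 57.8% of all tested genes, but the call was lost without G1 (adjusted p = 0.0625, edgeR).

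prpf39, a U1-associated factor that in yeast helps U1 bind the intron, had 153, 117 and 103 CPM in EG, against 47.5, 59.4 and 46.8 CPM in CG (log2FC 1.28, adjusted p = 0.00131, edgeR). Its groups did not overlap, and Ga was the highest library.

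The Sm proteins form the ring that holds the RNA of most of these particles, but not that of U6. Of 6 rows, 5 rose and 1 was not called, where 23.7% of all tested genes rose and 21.7% fell. Snrpg had 39.1, 38.4 and 30.0 CPM in EG, against 12.1, 13.5 and 14.0 CPM in CG (log2FC 1.44, adjusted p = 0.000329, edgeR). SNRPN, a match to the close relative of the Sm B protein, had 74.8, 71.6 and 55.5 CPM in EG, against 31.6, 31.8 and 32.3 CPM in CG (log2FC 1.08, adjusted p = 0.00109). In both genes every EG library lay above every CG library, and Gc was the lowest of EG. snrpd3 had 27.7, 26.1 and 19.2 CPM in EG and 11.9, 11.6 and 13.8 CPM in CG (log2FC 0.97, adjusted p = 0.00337, edgeR). Snrpd1, a neighbour of D2 in the ring, had a log2FC of 0.93, and its call was lost with library totals, from FPKM and without G1, G3 or Ga.

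SNRPE matches lay on 2 rows, 602 bases apart on the plus strand of scaffold50, both from outside the genome's annotation and at low levels. Novel00810 had 4.45, 5.46 and 4.80 CPM in EG and 1.91, 1.98 and 1.23 CPM in CG (log2FC 1.52, adjusted p = 0.00292, edgeR). Novel00808 had 2.48, 1.75 and 1.90 CPM in EG and 0.907, 0.604 and 6.47 CPM in CG. The value in G3 stood apart from the other CG libraries, the groups overlapped, and the log2FC of -0.37 turned to 1.43 without G3 (adjusted p = 0.0414, edgeR). Whether both rows are parts of 1 gene was not tested.

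The U2 particle was the largest group, with 17 members of which 10 rose, 2 fell and 5 were not called. Among all tested genes 23.7% rose and 21.7% fell. Snrpa1 and SNRPB2 encode the U2-specific partners A' and B'', which sit together on a stem-loop of the U2 RNA. Snrpa1 had 55.7, 57.8 and 42.2 CPM in EG, against 12.6, 12.4 and 11.0 CPM in CG (log2FC 2.11, SE 0.167, adjusted p = 0.00011, edgeR). SNRPB2 had 16.5, 19.5 and 10.1 CPM in EG, against 3.68, 4.77 and 4.43 CPM in CG (log2FC 1.84, SE 0.265, adjusted p = 0.00113). Both partners were over 3-fold higher, with no overlap between groups.

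SF3A and SF3B are the protein complexes that hold U2 on the branch site. Of the SF3B genes, SF3B4 had 49.4, 38.6 and 32.3 CPM in EG, against 10.9, 9.97 and 11.9 CPM in CG (log2FC 1.88, adjusted p = 0.000229, edgeR). Sf3b6, which contacts the branch-point adenosine and was the U2 member with the highest level per length, had 36.7, 35.8 and 31.4 CPM in EG and 20.4, 21.2 and 22.7 CPM in CG (log2FC 0.69, adjusted p = 0.00421). Sf3b6 was not called with library totals (adjusted p = 0.0992) or from FPKM. sf3b3 and SF3B2 had log2FC values of 1.64 and 1.37 and were also called, although the match behind SF3B2 is weak (e-value 1.11e-06). The 3 SF3A subunits SF3A2, Sf3a3 and SF3A1 all rose, with log2FC values of 1.25, 1.23 and 1.10. SF3B1, the large scaffold of SF3B, stood apart from its partners: it had 216, 202 and 181 CPM in EG and 208, 216 and 214 CPM in CG. The groups overlapped, and its log2FC was -0.09 (SE 0.136, adjusted p = 0.613, edgeR), although with library totals it was called lower (-0.43, adjusted p = 0.0449), as it was from FPKM.

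The factors that find the branch site and the end of the intron before U2 arrives did not rise as a block. SF1, which first binds the branch site, and both rows of U2AF2, which binds the pyrimidine tract, had log2FC values between -0.21 and 0.19 and were not called. With library totals SF1 (adjusted p = 0.0439) and the lower of the U2AF2 rows (adjusted p = 0.0335) were called lower, and both were also called lower from FPKM. PUF60, a relative of U2AF2, fell to 9.87, 9.21 and 15.3 CPM in EG, against 17.1, 19.8 and 18.6 CPM in CG (log2FC -0.69, adjusted p = 0.0293, edgeR). That call was lost without any one of G1, G2, G3, Ga or Gb (adjusted p = 0.0742 to 0.104), and the match to PUF60 is weak (e-value 1.28e-08). U2AF1, the partner of U2AF2 that reads the last bases of the intron, had 1 row that rose and 1 that fell, described below.

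**Figure D2:**
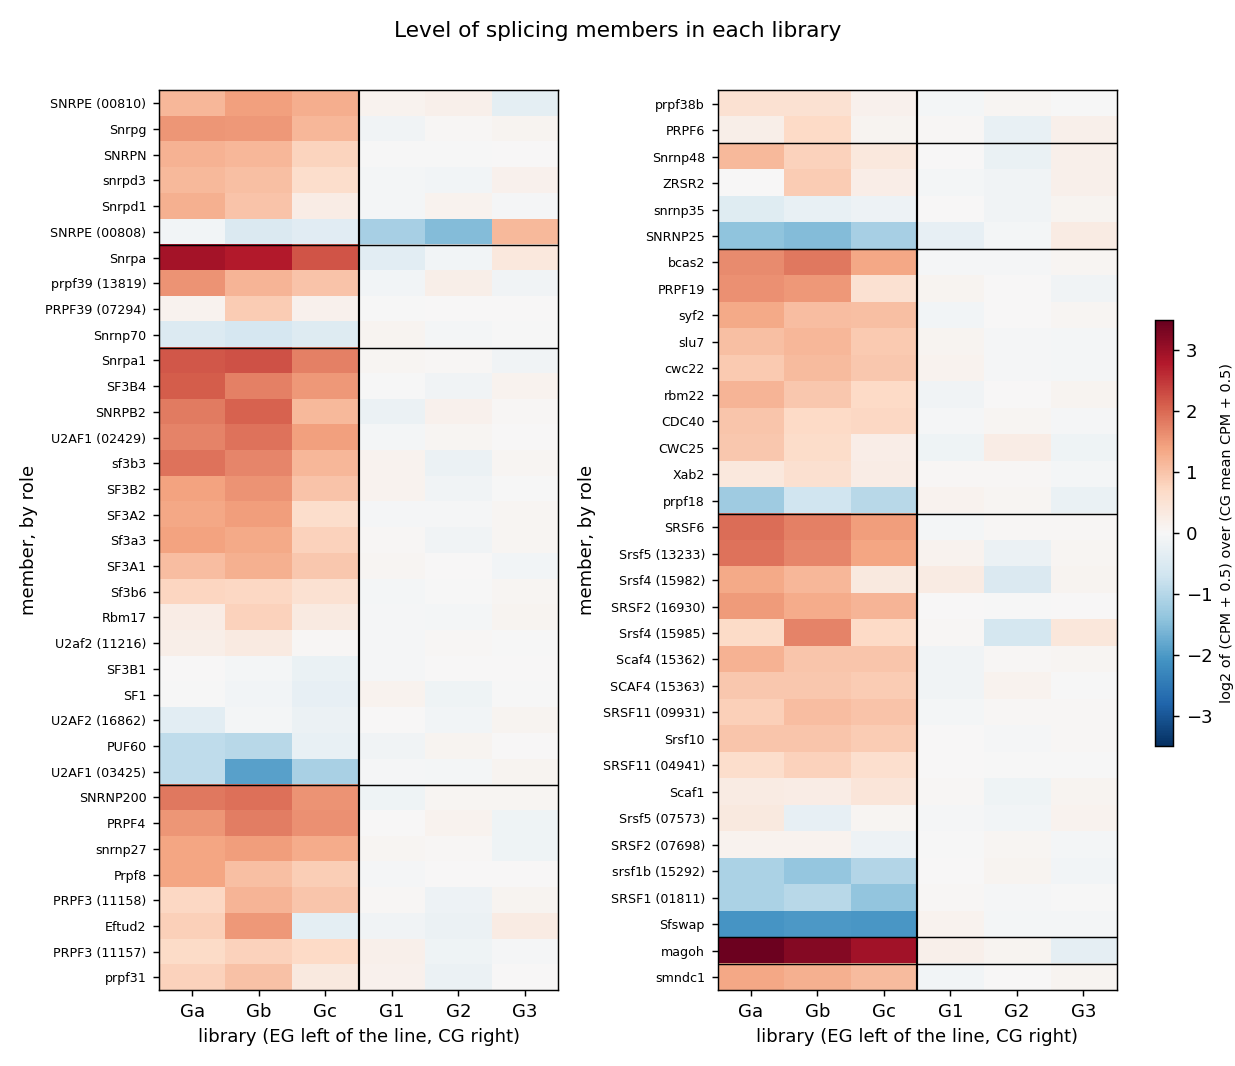
Level of the members (all but 1) in each library, as the log2 of CPM over the CG mean (0.5 CPM added to both), with EG libraries left of the vertical line and CG libraries right of it. Rows are ordered by role and, within a role, by fold change; red is above the CG mean and blue below. Red fills most EG cells, deepest in magoh and Snrpa, and Gc is paler than Ga and Gb in most rows.

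Among the U4/U6 and U5 proteins, 7 of 10 rows rose, none fell and 3 were not called. SNRNP200 is the helicase that unwinds U4 from U6 to activate the spliceosome. It had 221, 232 and 180.3 CPM in EG, against 55.1, 63.1 and 64.0 CPM in CG (log2FC 1.80, SE 0.159, adjusted p = 0.000151, edgeR). PRPF4, a U4/U6 protein, had 34.3, 40.6 and 35.5 CPM in EG, against 11.5, 12.6 and 10.3 CPM in CG (log2FC 1.68, adjusted p = 0.00015). Both were over 3-fold higher in EG with no overlap. snrnp27, of the assembled U4/U6.U5 particle, had 21.0, 22.2 and 20.0 CPM in EG, against 8.24, 8.11 and 7.03 CPM in CG (log2FC 1.43, adjusted p = 0.000235, edgeR). Prpf8, the scaffold around the catalytic centre, had 195, 155 and 136 CPM in EG, against 73.2, 75.3 and 76.4 CPM in CG (log2FC 1.11, adjusted p = 0.00133).

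PRPF3, which binds U4/U6 with PRPF4, lay on 2 rows 312 bases apart on the plus strand of scaffold64, with log2FC values of 1.01 and 0.79, both called; whether they are parts of 1 gene was not tested. prpf31, which bridges U4/U6 and U5, had a log2FC of 0.78 (adjusted p = 0.0168, edgeR). The calls of prpf31 and of the shorter PRPF3 row were lost with library totals, from FPKM and without G2. That of prpf31 was also lost without G3. Eftud2, the GTPase that works with SNRNP200, varied widely in the cold: 132, 213 and 57.2 CPM in Ga, Gb and Gc, against 67.1, 63.8 and 89.2 CPM in CG. Gc lay below every CG library, and the log2FC of 0.87 was not called (SE 0.41, adjusted p = 0.118), while without Gc it was (log2FC 1.24, adjusted p = 0.00848). prpf38b, which had the highest mean FPKM of this group, had 49.4, 49.8 and 37.6 CPM in EG and 32.4, 36.1 and 34.0 CPM in CG. Its groups did not overlap, as in 57.8% of all tested genes. It was not called (log2FC 0.42, adjusted p = 0.0572, edgeR), except without Gc (adjusted p = 0.0162).

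The 4 minor spliceosome members were low, and 1 rose, 1 fell and 2 were not called. These counts are near the whole table, where 23.7% of tested genes rose and 21.7% fell. Snrnp48, of the U11 particle, had 7.28, 5.68 and 4.07 CPM in EG and 3.10, 2.53 and 3.47 CPM in CG (log2FC 0.90, adjusted p = 0.0275, edgeR). Its call was lost in 7 of 13 alternatives, among them library totals and leaving out G1, G2 or Ga. SNRNP25, which also belongs to the U11 and U12 particles, fell to 0.613, 0.540 and 0.819 CPM in EG, against 1.93, 2.32 and 3.11 CPM in CG (log2FC -1.89, SE 0.368, adjusted p = 0.00432). ZRSR2, which reads the end of minor introns, and snrnp35, of the U11 particle, had log2FC values of 0.45 and -0.37 and were not called, except that snrnp35 was called lower from FPKM.

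Of the 10 members in the Prp19 complex and the catalytic steps, 9 rose and 1 fell. The shares over all tested genes were 23.7% and 21.7%. bcas2, a subunit of the complex, had 24.0, 27.5 and 19.4 CPM in EG, against 7.14, 7.09 and 7.79 CPM in CG (log2FC 1.69, adjusted p = 0.000241, edgeR). PRPF19, its ubiquitin ligase, had 25.1, 23.6 and 11.5 CPM in EG, against 8.45, 7.93 and 7.23 CPM in CG (log2FC 1.35, adjusted p = 0.00612). Gc was the EG library nearest to CG in PRPF19, yet no EG library reached down to CG in either gene. syf2, a further subunit, had 73.1, 61.5 and 61.1 CPM in EG, against 27.2, 29.2 and 30.8 CPM in CG (log2FC 1.17, adjusted p = 0.000521).

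The step factors went both ways. slu7, which selects the 3' splice site, had 24.0, 26.1 and 21.9 CPM in EG, against 12.1, 11.0 and 10.8 CPM in CG (log2FC 1.09, adjusted p = 0.000713, edgeR). prpf18, which acts at the same second step, fell to 14.7, 21.6 and 17.9 CPM in EG, against 38.6, 37.6 and 30.3 CPM in CG (log2FC -0.97, SE 0.183, adjusted p = 0.00369). Neither gene's groups overlapped. cwc22, rbm22 and CDC40, of which cwc22 brings an exon junction protein to the spliceosome, had log2FC values of 1.00, 0.97 and 0.83 and were called. The small rises of CWC25 and Xab2 (0.67 and 0.40) were lost in 8 and 10 of the 13 alternatives.

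smndc1, a relative of the survival of motor neuron protein that takes part in spliceosome assembly, fell in no role list. It had 33.3, 30.8 and 27.9 CPM in EG, against 11.7, 12.8 and 13.4 CPM in CG (log2FC 1.28, adjusted p = 0.000336, edgeR).

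**Figure D3:**
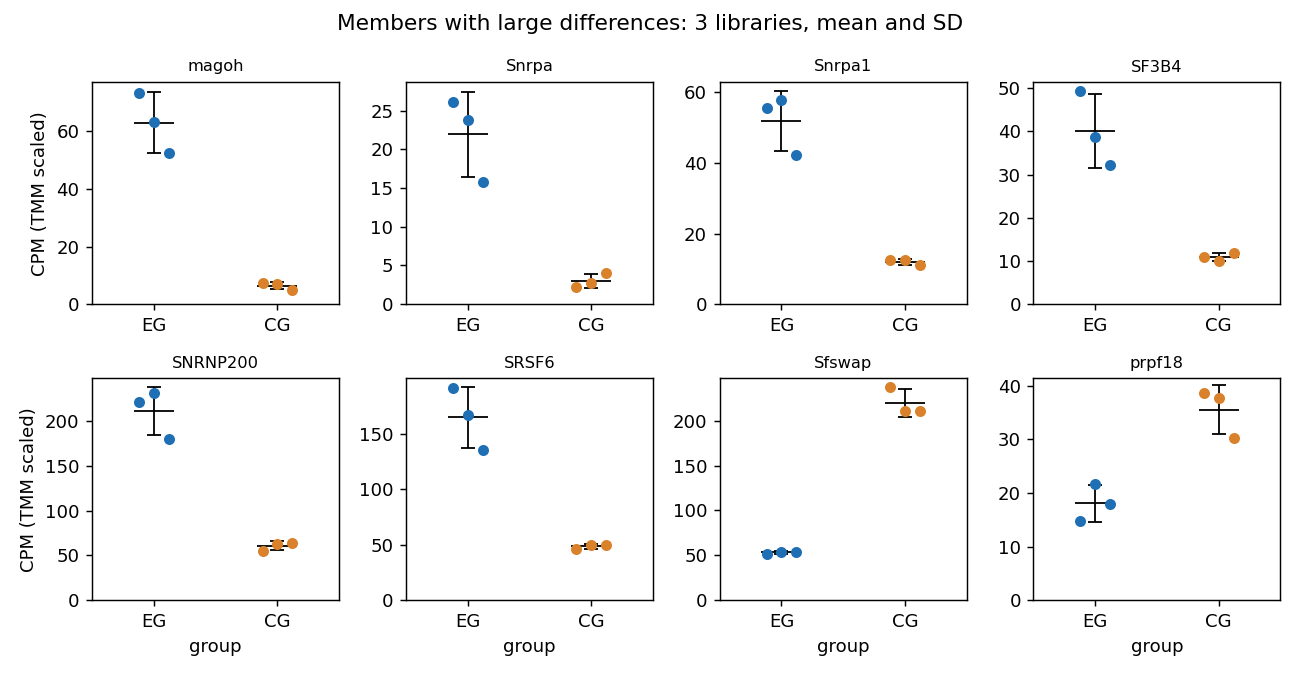
CPM of 8 members in the 3 EG and 3 CG libraries (points), with the mean as a dash and the SD as a bar; each panel has its own axis from 0. magoh, Snrpa, Snrpa1, SF3B4, SNRNP200 and SRSF6 are higher in all EG libraries, whereas Sfswap and prpf18 are lower in all of them.

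SR proteins and splice-site regulators held the member with the largest decrease, Sfswap, beside several that rose. Of 16 rows, 9 rose, 3 fell and 4 were not called, where 23.7% of all tested genes rose and 21.7% fell. The part of these rows that fell was near that of the whole table. SRSF6 had 191, 167 and 136 CPM in EG, against 46.0, 49.5 and 50.1 CPM in CG (log2FC 1.76, SE 0.166, adjusted p = 0.000183, edgeR). Sfswap, the relative of the fly suppressor of white-apricot and a regulator of alternative splicing, fell to 51.8, 54.2 and 53.7 CPM in EG, against 238, 211 and 211 CPM in CG. It was 4.13-fold lower in EG (log2FC -2.05, SE 0.136, adjusted p = 6.45e-05), and the EG libraries differed little from each other. Sfswap is fugu_GLEAN_10002154, on the minus strand of scaffold244 at 313397 to 325864.

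Srsf10, which represses splicing during heat shock in mammalian cells, had a log2FC of 0.96 (adjusted p = 0.000679, edgeR). The 2 SCAF4 rows, which lie 26 bases apart on the minus strand of scaffold9, had log2FC values of 1.12 and 1.02, both called, and here too it was not tested whether they are parts of 1 gene. SCAF4 binds the tail of RNA polymerase II and also acts in ending transcription. Scaf1, of the same family of names, had a log2FC of 0.32 and was not called. The 2 Srsf4 rows have the same length and the same match and lie 7165 bases apart on 1 strand, so their reads may be shared between copies. Both were below 8 CPM in every library, with log2FC values of 1.45 and 1.31, of which the second was called (adjusted p = 0.043), and that call was lost in 7 of 13 alternatives; the first was called with DESeq2 and without Gc.

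Rows that share a gene name were compared with each other. In SRSF1, the founding SR protein, both rows fell, by nearly the same log2FC. srsf1b had 21.0, 17.5 and 22.2 CPM in EG, against 45.7, 48.8 and 42.4 CPM in CG (log2FC -1.17, adjusted p = 0.000616, edgeR). The second row, SRSF1, had 10.1, 11.1 and 8.28 CPM in EG, against 22.8, 21.7 and 22.1 CPM in CG (log2FC -1.18, adjusted p = 0.000771). The rows lie on different scaffolds, and their log2 ratio differed by -0.01 between EG and CG.

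U2AF1 showed the widest contrast within a name. fugu_GLEAN_10002429, on scaffold95 at 19320 to 21991, had 41.5, 46.8 and 33.5 CPM in EG, against 11.4, 12.6 and 12.2 CPM in CG (log2FC 1.75, SE 0.163, adjusted p = 0.000173, edgeR). fugu_GLEAN_10003425, on scaffold202 at 54183 to 70771, fell to 14.1, 6.86 and 11.8 CPM in EG, against 26.1, 25.6 and 28.5 CPM in CG (log2FC -1.29, SE 0.25, adjusted p = 0.00436). The first row made up 74.6%, 87.2% and 73.9% of U2AF1 counts in Ga, Gb and Gc, against 30.5%, 33.0% and 29.9% in G1, G2 and G3. By counts, the first row was the larger in EG and the second in CG, while the sum of both was 55.6, 53.6 and 45.3 CPM in EG and 37.5, 38.2 and 40.7 CPM in CG. The second row is also longer (2931 against 696 bases), and whether all of its counts come from U2AF1 sequence was not tested. Per length, the first row was the larger in both groups, with a mean of 52.2 against 3.26 FPKM in EG and 19.5 against 10.3 FPKM in CG.

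In SRSF5 and SRSF2 only 1 row of each was called. Srsf5 on scaffold17 (fugu_GLEAN_10013233) had 287, 248 and 196 CPM in EG, against 82.7, 65.6 and 78.9 CPM in CG (log2FC 1.69, adjusted p = 0.000345, edgeR). Srsf5 on scaffold154 had 25.6, 16.7 and 21.1 CPM in EG and 19.6, 19.0 and 22.3 CPM in CG (log2FC 0.06, adjusted p = 0.806). The higher row rose about 3-fold and the lower row overlapped between groups. SRSF2 on scaffold101 had 43.0, 37.1 and 34.3 CPM in EG, against 14.9, 14.7 and 15.1 CPM in CG (log2FC 1.35, adjusted p = 0.000265). SRSF2 on scaffold62, the more abundant row, had 62.8, 63.0 and 51.3 CPM in EG and 57.2, 60.8 and 55.5 CPM in CG (log2FC 0.03, adjusted p = 0.883). Here the share of the first row was 37.1% to 40.6% in EG and 19.5% to 21.4% in CG.

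SRSF11 rose on both rows, with log2FC values of 0.97 and 0.68, and the second call was lost with library totals and from FPKM. The second PRPF39 row, on scaffold70, had 5.39, 9.56 and 5.56 CPM in EG and 4.87, 4.95 and 4.96 CPM in CG (log2FC 0.47, adjusted p = 0.172), far below the called row on scaffold84. For each of the 11 pairs the log2 ratio of its rows (0.5 CPM added to each) was compared between EG and CG by a two-sided exact permutation test. In 6 pairs (U2AF1, SRSF5, SRSF2, PRPF39, U2AF2 and SRSF11) the ratios did not overlap between the groups, and the exact permutation test gave p = 0.1 for each (0.183 adjusted over the 11 pairs), where 0.1 is the smallest p that 3 against 3 libraries allow. Levels of single genes did not overlap between EG and CG in 57.8% of all tested genes, so 6 of 11 pairs is near that share. No such share was computed for ratios of other pairs of genes. The difference of the log2 ratio was 3.003 in U2AF1, 1.63 in SRSF5 and 1.30 in SRSF2.

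**Figure D4:**
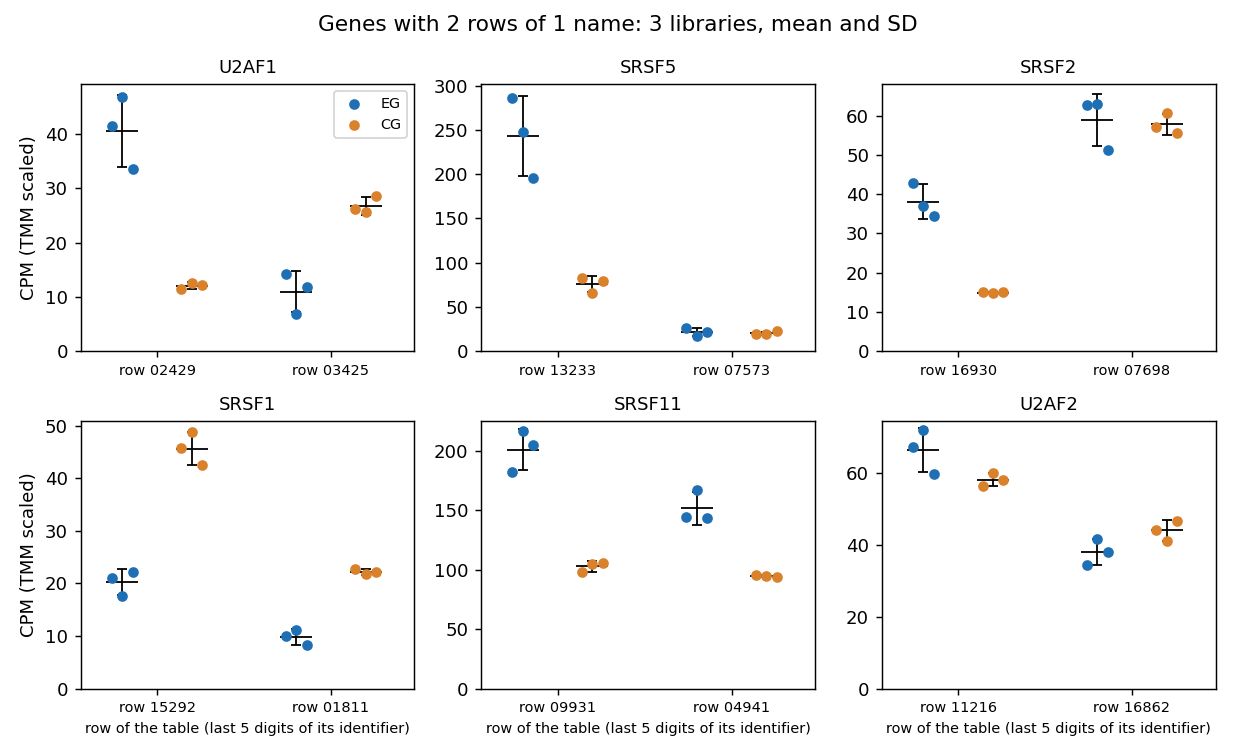
CPM of the 2 table rows that share a gene name, for 6 names, in the 3 EG and 3 CG libraries (points), with mean and SD. In U2AF1 the left row is higher and the right row lower in EG, in SRSF5 and SRSF2 only the left row differs, and in SRSF1 both rows are lower in EG.

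Per length, the splicing members were well above the typical liver gene. Their median mean FPKM (fragments per kilobase of model, scaled to library size) was 20.4, against 4.95 over all tested genes. The highest was Snrpg at 266 ± 46.04 FPKM in EG and 124 ± 10.1 FPKM in CG (SD, n = 3 each), on a model of only 120 bases, which makes its value per length uncertain. Srsf5 on scaffold17 followed with 242 ± 43.1 FPKM in EG and 95.4 ± 13.0 FPKM in CG, so that in EG these leaders did not differ beyond their spread. Snrnp70 led in CG, with 106 ± 4.98 FPKM in EG and 190.3 ± 13.9 FPKM in CG. At the other end, the Srsf4 row on scaffold60 at 1211645 to 1214778 had 1.51 ± 0.617 FPKM in EG and 0.70 ± 0.322 FPKM in CG.

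Other genes of the pathway, which the name rule does not take, were followed with lists of textbook genes of the spliceosome and of linked steps. Those steps include particle assembly and import, mRNA export and decay, and kinases of SR proteins. Not all of the listed genes encode spliceosome proteins, though they are called other spliceosome genes below. Of 146 such genes 138 were tested, and 63 rose, 27 fell and 48 were not called, with a median log2FC of 0.51, where 23.7% of all tested genes rose and 21.7% fell. This split was not stable: with library totals 43 rose and 35 fell, and from FPKM 39 rose and 37 fell. The whole table of 14357 tested genes shifted in these settings too. With library totals 2024 of them rose and 4514 fell, and with log2(FPKM + 1) values 1962 rose and 4754 fell. The list of LSm proteins, relatives of the Sm proteins, had 5 of 7 genes higher and none lower. It holds 4 proteins of the ring on U6, of which Lsm3, Lsm6 and LSM7 rose and LSM4 was not called (log2FC 0.51). Beside these it has lsm11 and Lsm10 of the U7 particle and LSM1 of the cytoplasmic decay ring. LSM1 was called at the same log2FC of 0.51. Both lay near the threshold (adjusted p = 0.0496 for LSM1 and 0.0543 for LSM4, edgeR). Lsm6 had 7.31, 6.38 and 4.86 CPM in EG, against 1.55, 1.16 and 1.88 CPM in CG (log2FC 2.02, adjusted p = 0.000967, edgeR), and LSM7 had a log2FC of 1.81. In the list of the Prp19 complex and associated cyclophilins, 12 of 15 rose and 1 fell. PLRG1, among those that rose, had a mean of 12221.5 CPM in EG and 5855 CPM in CG. That is far above every other gene of this list, and whether all of its counts come from PLRG1 sequence was not tested. Ppig (2.60, from a weak match with e-value 5.66e-09) and Ppil3 (2.08) were at the top. Ppil3 was at a low level, with a mean of 1.84 CPM in EG and 0.433 CPM in CG. Of 13 splicing helicases 7 rose and 2 fell, with both leading rows matched to Ddx39a, of mRNA export (1.96 and 1.88).

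Of the further core proteins of the exon junction complex, rbm8a, casc3 and Eif4a3 (log2FC 0.81) rose. rbm8a, which forms a dimer with magoh, had 73.3, 68.9 and 47.4 CPM in EG, against 18.2, 22.7 and 21.6 CPM in CG (log2FC 1.60, adjusted p = 0.000572, edgeR). casc3, a further core protein, had 96.4, 89.1 and 77.3 CPM in EG, against 30.8, 27.5 and 29.4 CPM in CG (log2FC 1.58, adjusted p = 0.000165). No EG library of either gene reached down to CG. wibga, matched to a partner of both magoh and rbm8a, lay the other way with a mean of 2.00 CPM in EG and 2.98 CPM in CG. It was not called (log2FC -0.58, adjusted p = 0.109, edgeR), although its groups did not overlap, as in 57.8% of all tested genes. In the whole list of exon junction and export genes, 11 of 21 rose and 4 fell, where 23.7% of all tested genes rose and 21.7% fell.

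Of 23 tested genes of particle assembly and import, 9 rose and 5 fell, where 23.7% of all tested genes rose and 21.7% fell. The part of this list that fell was near that of the whole table. PRMT5, which methylates Sm proteins before the ring is closed, had 48.5, 43.9 and 40.5 CPM in EG, against 8.59, 9.60 and 7.73 CPM in CG (log2FC 2.36, adjusted p = 6.13e-05, edgeR). MEPCE, which caps the 7SK RNA that restrains transcription, fell to 3.04, 3.43 and 3.51 CPM in EG, against 20.6, 21.9 and 21.7 CPM in CG (log2FC -2.69, adjusted p = 6.13e-05). A second row, mepce, fell much less and near the threshold (log2FC -0.60, adjusted p = 0.0486, edgeR). Its mean was 9.56 CPM in EG and 14.5 CPM in CG. Of 10 tested kinases that phosphorylate SR proteins, 3 rose and 4 fell, again beside 23.7% and 21.7% of all tested genes. Clk4 fell to 42.7, 42.6 and 31.9 CPM in EG, against 119, 128 and 131 CPM in CG (log2FC -1.69, adjusted p = 0.000196). SRPK2, at low levels, had a log2FC of -2.05, and its call was lost without G1, G3 or Ga (adjusted p = 0.0578 to 0.0631).

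The last list held 49 tested splice-site regulators and remaining particle proteins, of which 16 rose and 11 fell. Over all tested genes 23.7% rose and 21.7% fell, so the part of this list that fell was near that of the whole table. nhp2l1, which binds U4 and also box C/D RNAs of the nucleolus, had 34.6, 34.7 and 26.4 CPM in EG, against 3.82, 3.91 and 4.82 CPM in CG (log2FC 2.93, adjusted p = 6.13e-05, edgeR). PTBP1, a repressor of exons next to pyrimidine tracts, had 68.6, 61.5 and 47.9 CPM in EG, against 22.3, 19.3 and 18.6 CPM in CG on the row that was called (log2FC 1.56, adjusted p = 0.000356). A second PTBP1 row lay the other way, with a mean of 24.1 CPM in EG and 35.1 CPM in CG. Its groups overlapped, and it was not called (log2FC -0.54, adjusted p = 0.106, edgeR). The median of this list was 0.12, against 1.21 for the LSm list and -0.57 for the SR kinases.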

How the data were processed

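Liver RNA of T. fasciatus was sequenced in 6 libraries (3 EG, 3 CG). The authors trimmed the reads, aligned them with HISAT2 2.0.4 to a genome of the species that was not public, and quantified them with RSEM 1.2.3; genome build and annotation are not given in the sources used here. The deposited counts are raw and whole, and the deposited FPKM values equal counts over length and library total (97.6% within 0.1%). Lengths are mostly coding lengths (96.6% are multiples of 3). The deposited table also holds the authors' fold changes and p-values, which were not used.

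EG was compared with CG in R 4.3.3 with edgeR 4.0.16 (filterByExpr, TMM, quasi-likelihood F test, Benjamini-Hochberg adjustment over 14357 genes), without covariates, since no replicate of EG is matched to one of CG. Near-identical paralogs and overlapping genes can share reads, and whether counting used strand is not stated. Standard errors were taken from the F statistic. The test was also run on simulated counts in which few genes changed, with as many rises as falls and the same dispersion for all genes. That simulation does not cover a shift of the whole table between scalings, and no result here rests on it. Alternatives were library totals, DESeq2 size factors, upper quartile factors, no filter, DESeq2 1.42.0, limma 3.58.1 on log2(FPKM + 1) and log2(FPKM + 0.1), and leaving out each library.

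The members and all gene lists were chosen with earlier results of these data known. Values per library are given, by role, for up to 4 called members with the largest change at a mean of at least 1 CPM, for the member with the highest mean FPKM, for all that fell and for rows that share their names; of the other lists, for the 2 with the largest change. Further members are given by fold change. SF3B1, Eftud2, Eif4a3, wibga, PLRG1 and the second rows of PTBP1 and MEPCE were chosen after their values were seen. Replicate error is that of pools of fish, kept in 6 aquaria that were divided between EG and CG. The common biological coefficient of variation was 29.6%. No sequences are shown. The values of 1 member are not reported here; it is kept in the counts.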

Additional observations from a re-analysis of the deposited data

How the results depend on the processing

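Of the 46 members that rose, 35 kept the call in each of the 13 alternatives, and of the 8 that fell, 6 did; no called member changed sign. Leaving out 1 library gave 41 to 50 members higher and 6 to 8 lower, a median of 0.91 to 1.07, 2598 to 3329 genes higher and 2219 to 2970 lower in the whole table, and 50 to 63 other spliceosome genes higher and 18 to 26 lower. With library totals, 2024 of all genes rose and 4514 fell, and the members' median was 0.63. With limma on log2(FPKM + 1), 1962 genes rose and 4754 fell, 39 other spliceosome genes rose and 37 fell, and the members' median was 0.57; with log2(FPKM + 0.1) the values were 1970, 4700, 39, 37 and 0.62. The median over all tested genes was -0.37 with library totals, -0.22 with upper quartile factors and -0.24 and -0.36 from FPKM with 1 and 0.1 added, against -0.03 with TMM. The log2 fold changes of 5 members that were not called turned sign: Srsf5 on scaffold154 to -0.29 with library totals, -0.13 with upper quartile factors, -0.29 and -0.30 from FPKM with 1 and 0.1 added, and over -0.094 to 0.21 when 1 library was left out (below 0 without Ga); SRSF2 on scaffold62 to -0.31, -0.16, -0.31 and -0.32 in the same settings, and over -0.013 to 0.13 when 1 library was left out (below 0 without Ga or Gb); and SNRPE Novel00808 to 0.045 from FPKM with 0.1 added, and over -0.84 to 1.43 when 1 library was left out (above 0 without G3); with library totals, U2af2 on scaffold64 also turned to -0.14 and Scaf1 to -0.018, and both turned from FPKM as well. DESeq2 called 47 members higher and 8 lower. No paired analysis was possible because no library of EG is matched to one of CG. Depth limits the lowest rows most, among them an Srsf4 row, SNRNP25 and SNRPE Novel00808.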

Other observations

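Across the 70 members, the fold change had little relation to coding length or level. Spearman's rho with log2 length was -0.15 (Pearson's r -0.11), and with log2 mean FPKM 0.09 (r 0.10), as a description over genes of the same 6 libraries. The members that fell had a median length of 1222.5 bases and a median mean FPKM of 28.2, and those that rose 1168.5 bases and 20.1 FPKM. The 70 rows lie on 53 scaffolds, with 5 on scaffold101 as the most on 1 scaffold, and 2 of these 5 rose (SRSF2 and Xab2), 1 fell (SNRNP25) and 2 did not pass the test (U2AF2 and Eftud2).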
